A study of Homo sapiens with 2 samples.

Results

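Complement components and regulators were followed as 9 genes, C1R, C1S, C3, CFB, CFI, SERPING1, CD46, CD55 and CD59, chosen by symbol. They were read through all probe sets whose single gene symbol in the platform annotation was one of these names, 20 probe sets of 54675 on the array, or 9 genes of 19775 named genes. No probe set listed a member together with another gene. The series held 2 samples of U87, a long-established human glioblastoma cell line, by their labels. Of these, the FOXM1-labelled sample had, by its label, received FOXM1 siRNA, directed at a forkhead transcription factor of the cell cycle, and the other a non-target siRNA. Both were transfected transiently with a lipid reagent, and total RNA was taken after 48 hours. Each group held 1 array, so there was no SD between samples, no test between conditions, and every difference below is between these 2 arrays as labelled.

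Complement is a cascade of proteases and binding proteins that marks surfaces and can open pores in membranes. In the classical route, the proteases encoded by C1R and C1S act within the C1 complex, and factor B, encoded by CFB, carries the protease of the alternative route. Both routes cleave C3, the central component. The cascade is held back by SERPING1, which inactivates the C1 proteases, by CFI, which cuts active C3 fragments, and by the membrane proteins CD46, CD55 and CD59. The liver makes most plasma complement, while astrocytes and glioma cells are also known to make components, and interferon gamma, IL-1 and IL-6 are known inducers.

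Before the members, the labels were compared with their transcripts. The floor of each array, below which a signal was treated as background, was the 90th percentile of olfactory receptor probe sets, 77.7 on the FOXM1-labelled array and 60.8 on the non-target-labelled array. Signals below it were raised to it, and 13865 genes lay above it on at least 1 array, here called detected. FOXM1 read 1343 on the FOXM1-labelled array and 1520 on the non-target-labelled array, a log2 difference of -0.18. CDKN2A, which U87 cells are known to lack, read 421 on the FOXM1-labelled array and 3467 on the non-target-labelled array. Both CDKN2A signals lay above their floors. Of the other 9p21 genes, MTAP read 76.3 and 619 in that order of arrays, and CDKN2B read 31.8 and 350. These MTAP and CDKN2B signals lay above the floor on the non-target-labelled array alone. The targeted transcript therefore did not check the siRNA label, and an effect of the siRNA and a difference between the cells cannot be told apart. Of 7 astroglial and glioma markers, VIM, SLC1A3 and OLIG2 lay above the floor on both arrays, whereas GFAP and AQP4 lay below it on both. NES was above it on the FOXM1-labelled array alone and S100B on the non-target-labelled array alone. For the ACTB control, signal at the 3' end over that at the 5' end was 4.21 on the FOXM1-labelled array and 6.79 on the non-target-labelled array. For GAPDH it was 1.09 and 1.26 in that order, and the part of RNA quality in the differences below was not tested.

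The complement components were higher on the FOXM1-labelled array, and the membrane regulators were split. Of 8 members detected, 6 (C1R, C1S, C3, CFB, CFI and CD59) passed 2-fold in the higher direction, and none passed it in the lower. Over all detected genes, 16% were 2-fold or more higher and 15.4% were 2-fold or more lower. The members and the gene lists below were chosen with earlier results of these data known. Their counts are therefore not independent of that choice. The median log2 difference of the 8 members was 1.76 with CFB at its bound, a 3.38-fold level, beside -0.02 over all 13449 genes with a fold. CD46 and CD55 stayed under 2-fold, and SERPING1 lay below the floor on both arrays. The only error available was the disagreement between probe sets of a gene within these arrays, a probe set SD of 0.46 on the log2 scale, taken over 5476 genes. It leaves out all variation between cultures.

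**Figure D1:**
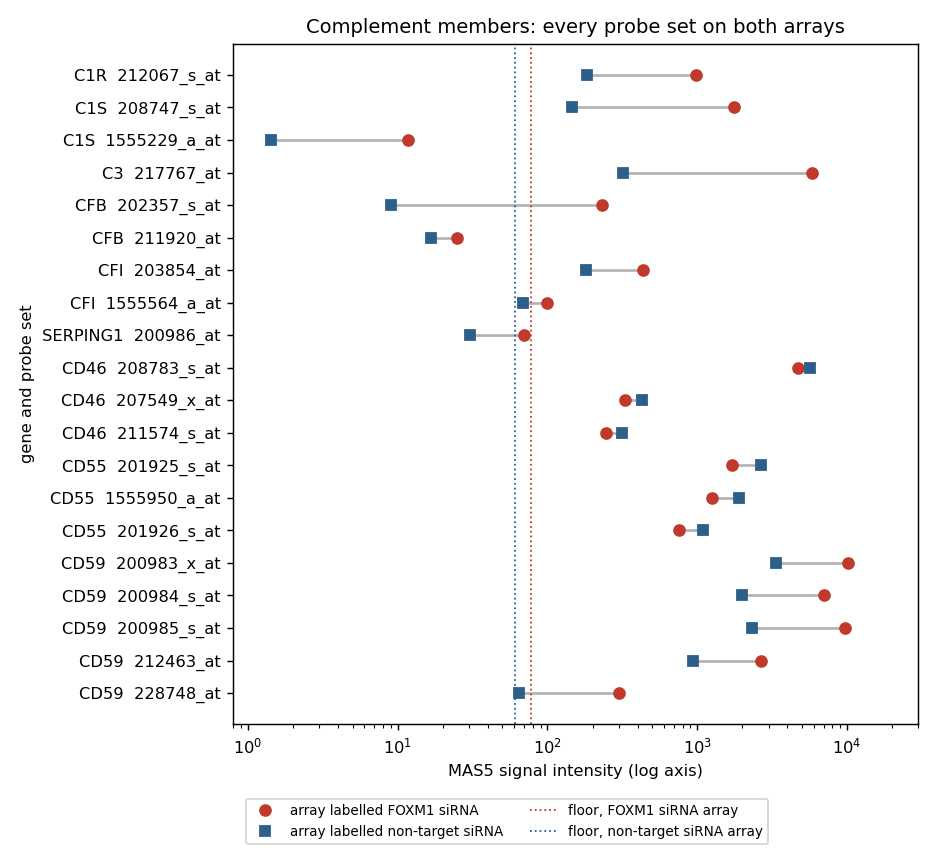
MAS5 signal intensity (log axis) of all 20 member probe sets, one row each, for the arrays labelled FOXM1 siRNA (red circles) and non-target siRNA (blue squares). Dotted lines mark the floors at 77.7 and 60.8; all 5 CD59 probe sets have the red circle to the right, and all 6 CD46 and CD55 probe sets have it to the left.

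Among the components, C3 differed most. Its single probe set, 217767_at, read 5822 on the FOXM1-labelled array and 317 on the non-target-labelled array. This is 18.4-fold, or 4.20 on the log2 scale. C3 held rank 58 from the top among the 13449 genes with a fold. The value rests on this 1 probe set, so no further reading of C3 within the arrays was at hand.

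The gene pair that encodes the C1 proteases also differed in 1 direction. C1S read 1755 on the FOXM1-labelled array and 145 on the non-target-labelled array in probe set 208747_s_at, a 12.1-fold level and 3.60 on the log2 scale. C1S and C3 were the members beyond 8-fold, a size reached by 2.73% of detected genes. The other C1S probe set, 1555229_a_at, read 11.8 and 1.42 in the same order, below the floor on both arrays, and gave no fold. C1R, which cleaves and activates C1S, read 985 on the FOXM1-labelled array and 183 on the non-target-labelled array in its single probe set, a 5.37-fold level. The difference of 2.43 on the log2 scale lay above that of 95.6% of genes.

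Factor B was measured above the floor on 1 array only. Its probe set 202357_s_at read 231 on the FOXM1-labelled array and 9.03 on the non-target-labelled array. Against the floor of the non-target-labelled array, CFB was at least 3.79-fold higher, a bound of 1.92 on the log2 scale. The floor sets this value: with a floor raised 2 times the bound was 0.92, under 2-fold. Probe set 211920_at of CFB read 24.8 and 16.8 in that order, below the floor on both arrays. It therefore gave no further fold for this gene.

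Of the soluble inhibitors, CFI passed 2-fold in 1 of its probe sets and SERPING1 was not detected. CFI, the protease that degrades active C3 and C4 fragments, read 435 on the FOXM1-labelled array and 180 on the non-target-labelled array in probe set 203854_at, 2.42-fold or 1.27 on the log2 scale. Its probe set 1555564_a_at read 99.5 and 68.5 in that order, 1.45-fold, just above both floors. The log2 difference of CFI was under 2-fold with the median of both probe sets (0.91) and with the hybridisation controls set equal (0.97). SERPING1, the C1 inhibitor, read 70.1 on the FOXM1-labelled array and 30.3 on the non-target-labelled array. Both values lay under their floors, so no fold was given.

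The membrane regulators were read by 11 probe sets, all above both floors. CD59, which stops the pore from forming and is held in the membrane by a lipid anchor, had 5 of them. Its brightest, 200983_x_at, read 10179 on the FOXM1-labelled array and 3369 on the non-target-labelled array, 3.02-fold. Probe set 200985_s_at read 9661 and 2321 in that order, and 200984_s_at read 6986 and 1988. Probe sets 212463_at and 228748_at read 2668 and 303 on the FOXM1-labelled array, against 939 and 64.6 on the non-target-labelled array. All 5 were therefore higher on the FOXM1-labelled array, by 2.84-fold to 4.69-fold. The SD of their log2 differences was 0.30. The 4.69-fold came from 228748_at, whose signal on the non-target-labelled array lay just above the floor of 60.8.

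CD55, which speeds the decay of the convertases that cleave C3 and is also lipid-anchored, gave lower values in its 3 probe sets. Probe set 201925_s_at read 1698 on the FOXM1-labelled array and 2685 on the non-target-labelled array, a log2 difference of -0.66. Probe sets 1555950_a_at and 201926_s_at read 1261 and 755 on the FOXM1-labelled array, against 1891 and 1088 on the non-target-labelled array. Their log2 differences were -0.58 and -0.53. The SD over the 3 was 0.07, and none reached 2-fold.

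CD46, the transmembrane cofactor for CFI, differed least. Probe set 208783_s_at read 4708 on the FOXM1-labelled array and 5624 on the non-target-labelled array, a log2 difference of -0.26. Probe sets 207549_x_at and 211574_s_at read 330 and 247 on the FOXM1-labelled array, against 425 and 315 on the non-target-labelled array. Their log2 differences were -0.36 and -0.35. The SD over the 3 was 0.06. All 3 differences were smaller in size than the probe set SD of 0.46, which is taken over all genes with such pairs.

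The lowest of the 5 CD59 log2 differences, 1.51, lay 1.76 above the highest of the 6 for CD46 and CD55, -0.26. That gap is 3.39-fold. Counted by probe set, 9 of the 16 member probe sets above both floors differed by 2-fold or more, all in the higher direction, beside 14.7% (higher) and 13.4% (lower) of all 20742 such probe sets with a single symbol. Probe sets of a gene share their RNA and are not replicates. Of the 20 member probe sets, 14 had IDs of kinds whose probes can match several transcripts.

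**Figure D2:**
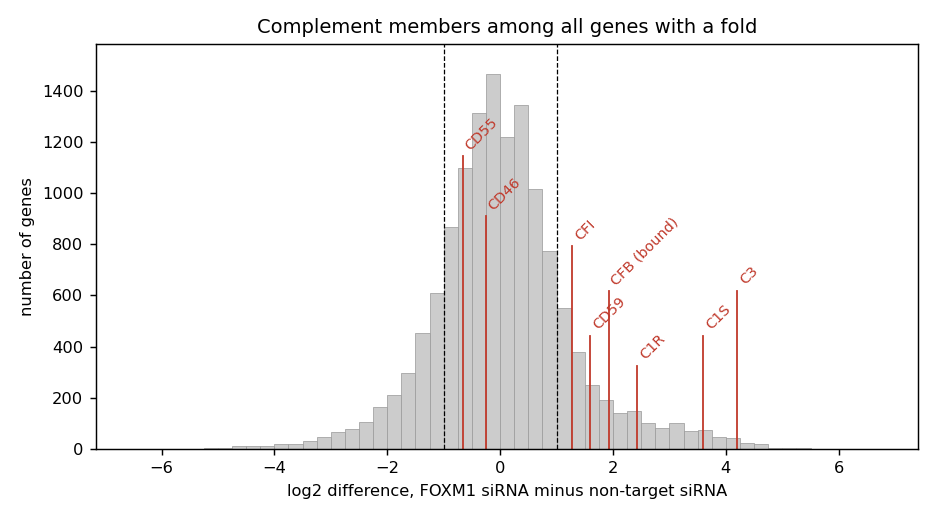
Number of genes (vertical axis) by log2 difference, FOXM1 siRNA minus non-target siRNA, for 13449 genes with a fold, with the 8 detected members marked by red lines whose heights carry no value. Dashed lines mark 2-fold; C3 (4.20) and C1S (3.60) lie far to the right, CD46 (-0.26) and CD55 (-0.66) lie near the centre, and CFB is a bound.

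Upstream sequence is printed for CFB and CD59, which were higher, and for CD46, which was not. RefSeq windows (GRCh38.p14) were matched for 6 of the 9 members, C1R, CFB, CFI, CD46, CD55 and CD59. C1S, C3 and SERPING1 were not matched. In each gene the 250 bases before the start site furthest upstream were searched on both strands, in 27305 genes in all. The patterns were the STAT pattern GAS (TTCNNNGAA), the interferon response pattern ISRE (GAAA, any 2 bases, GAAA), the NF-kB consensus, a C/EBP pattern (TTGCNNAA), a forkhead pattern (TGTTTA) and the cell cycle element CHR (TTTGAA). Capitals mark GAS and ISRE matches, and each sequence reads 5' to 3' on the strand of its gene. CFB is on the plus strand at chr6:31945845-31946094, CD59 on the minus strand at chr11:33736480-33736729 and CD46 on the plus strand at chr1:207751788-207752037.
CFB: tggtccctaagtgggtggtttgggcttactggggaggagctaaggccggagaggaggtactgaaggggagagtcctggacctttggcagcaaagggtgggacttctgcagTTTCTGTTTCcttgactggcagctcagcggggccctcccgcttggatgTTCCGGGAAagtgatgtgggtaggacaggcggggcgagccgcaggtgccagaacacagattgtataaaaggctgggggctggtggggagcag
CD59: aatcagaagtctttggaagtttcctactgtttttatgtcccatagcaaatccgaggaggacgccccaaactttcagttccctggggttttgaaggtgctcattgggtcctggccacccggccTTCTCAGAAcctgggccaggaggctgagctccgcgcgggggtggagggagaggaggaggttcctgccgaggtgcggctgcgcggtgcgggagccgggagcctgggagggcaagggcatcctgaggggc
CD46: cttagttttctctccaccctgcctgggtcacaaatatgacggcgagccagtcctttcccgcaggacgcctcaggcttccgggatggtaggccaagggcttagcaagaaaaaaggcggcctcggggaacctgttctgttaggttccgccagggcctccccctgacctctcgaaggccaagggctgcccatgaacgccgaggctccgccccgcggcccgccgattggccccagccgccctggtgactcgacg

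The CFB window held an ISRE match 140 to 131 bases and a GAS match 92 to 84 bases before the start, the GAS match reading TTCCGGGAA. The CD59 window held a GAS match, TTCTCAGAA, 128 to 120 bases before the start. CFB and CD59, the higher members printed, were the only ones of the 6 members searched with a GAS or ISRE match. C1R and CFI were also higher, and their windows, which are not printed, held neither. Over all genes, 6.76% of windows held GAS and 3.07% held ISRE. The C1R window held the C/EBP pattern, found in 9.12% of windows, and the forkhead pattern, found in 11.1%. The CHR letters were in the windows of C1R, CFI and CD59 and in 13.6% of all windows. The NF-kB consensus, in 5.07% of windows, matched none of the members searched, and neither CD46 nor CD55 held any of the 6 patterns. These are matches of letters, with no measurement of binding.

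Genes next to the members in the RefSeq gene order were read as well, 3 on each side. Of 45 distinct protein-coding neighbours that were not members, 32 had a fold, 5 of them 2-fold or more higher and 4 lower, shares near the 16% and 15.4% of all detected genes. The neighbours named here were chosen after their values were seen. C1RL, a C1R-like protease gene beside C1R, read 625 on the FOXM1-labelled array and 123 on the non-target-labelled array, 5.09-fold. Genes beside or near that block, LPCAT3, EMG1 and CLSTN3, had log2 differences of 0.75, -0.12 and 0.31, so differences beyond 2-fold among the genes shown there were those of C1S, C1R and C1RL. Around C3, CD70, a ligand of the TNF family, read 1834 on the FOXM1-labelled array and 306 on the non-target-labelled array, 2.58 on the log2 scale, and TNFSF9, of the same family, was 2.07-fold higher. C2, which encodes the classical counterpart of factor B and lies near CFB, was below the floor on both arrays. Among the lower neighbours, DXO, near CFB, read 191 on the FOXM1-labelled array and 978 on the non-target-labelled array, 5.12-fold lower, and YOD1, near CD55, was 2.49-fold lower. PLA2G12A, next to CFI, was 2.09-fold lower, and CR2, near CD46 and CD55, at least 2.80-fold lower. KIAA1549L, near CD59, was 3.41-fold higher. UBE2L6, next to SERPING1, was 11.0-fold higher although SERPING1 lay under the floor.

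**Figure D3:**
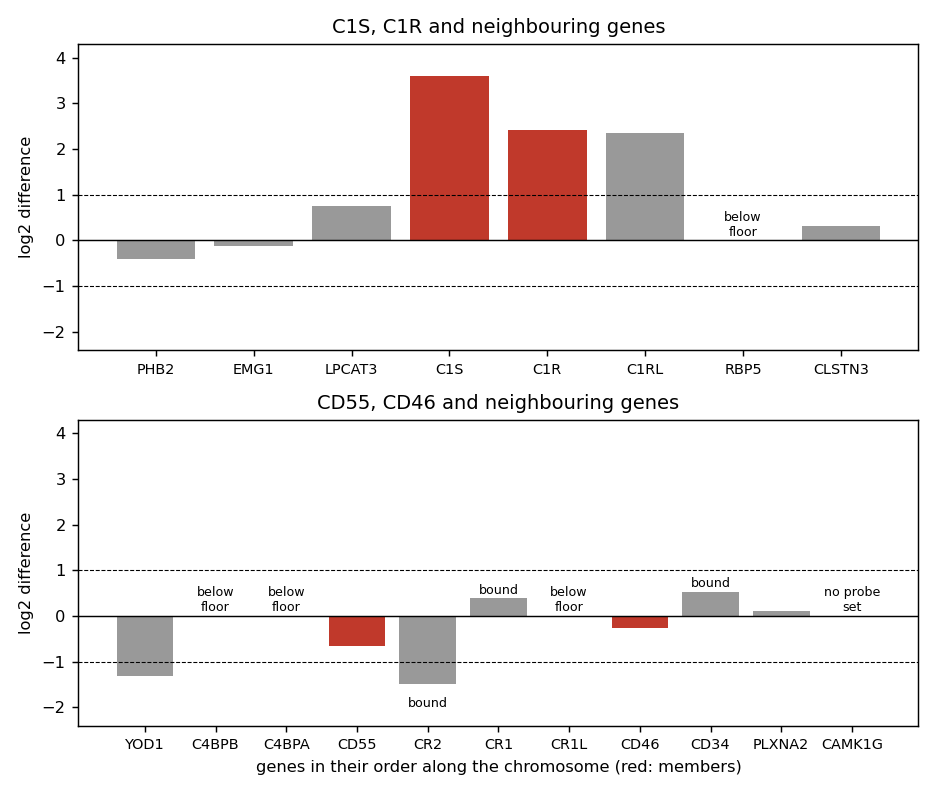
Log2 difference, FOXM1 siRNA minus non-target siRNA (vertical axis), of genes in chromosome order around C1S and C1R (top) and around CD55 and CD46 (bottom), with members in red and 2-fold as dashed lines. C1S, C1R and C1RL stand at 3.60, 2.43 and 2.35, with LPCAT3 at 0.75; CD55 and CD46 lie at -0.66 and -0.26, and bounds are marked.

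The other complement genes went in both directions in the brightest probe sets. Of 51 other complement genes, 44 could be read from a single-symbol probe set and 20 were detected, of which 7 were higher by 2-fold or more and 5 lower. Over all detected genes, 16% were higher and 15.4% lower. All 5 lower genes, COLEC12, CFD, C1QBP, CFHR4 and CR2, were read by _s_at probe sets (the other probe set of CR2 lay below both floors), and without _x_at and _s_at probe sets 7 of 13 were higher and 0 lower. Without those probe sets, 16.1% of all detected genes were higher and 15.1% lower. With all probe sets, the median log2 difference was 0.65 over the 19 other complement genes with a fold, bounds included. The other 7 were not analysed here.

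At the start of the pathways, C1QA, C1QB and C1QC, which encode the recognition part of C1, lay below the floor on both arrays, as did MBL2, FCN1, FCN2, COLEC10 and MASP2. COLEC12, a scavenger receptor with a collectin domain, was 7.17-fold lower, with 194 on the FOXM1-labelled array and 1395 on the non-target-labelled array. MASP1, a lectin pathway protease, had a log2 difference of 0.65. FCN3, a ficolin, had a bound of 0.88, and the collectin COLEC11 one of -0.70. CFD, the protease that activates factor B, read 78.9 on the FOXM1-labelled array, barely above its floor, and 286 on the non-target-labelled array, 3.62-fold lower. Properdin (CFP) was below the floor on both arrays.

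Of the terminal components, C5 read 212 on the FOXM1-labelled array and 82.9 on the non-target-labelled array, 2.55-fold. C8B and C9, which form part of the pore, had bounds of 0.50 and 0.43, and C6, C7, C8A and C8G were below the floor on both arrays. Among soluble regulators, clusterin (CLU), which binds terminal complexes, read 3993 on the FOXM1-labelled array and 479 on the non-target-labelled array. This is 8.34-fold, and its 3 probe sets above both floors gave log2 differences of 3.06 to 3.80. C1QBP, a mostly mitochondrial protein that binds C1q, read 9396 on the FOXM1-labelled array and 20767 on the non-target-labelled array, 2.21-fold lower. CFHR4 was at least 3.34-fold lower, and CFHR2 lay just above the floor on the non-target-labelled array and gave no fold.

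Thrombomodulin (THBD), which promotes inactivation of C3 fragments, read 396 on the FOXM1-labelled array and 65.9 on the non-target-labelled array, 6.01-fold. The 65.9 lay just above the floor of its array. CR1 had a bound of 0.39. Of the receptors for the anaphylatoxins, the small fragments of C3 and C5, C3AR1 read 534 on the FOXM1-labelled array and 111 on the non-target-labelled array, 4.81-fold. C5AR1 was at least 2.61-fold higher, and C5AR2 lay below the floor on both arrays, with 7.41 on the FOXM1-labelled array and 7.55 on the non-target-labelled array. ITGAX, a chain of a receptor for C3 fragments, was at least 5.42-fold higher, but ITGB2, the chain it pairs with, lay below the floor on both arrays. ITGAM had a bound of 0.66, and CR2 was at least 2.80-fold lower, with 5.36 on the FOXM1-labelled array and 218 on the non-target-labelled array.

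**Figure D4:**
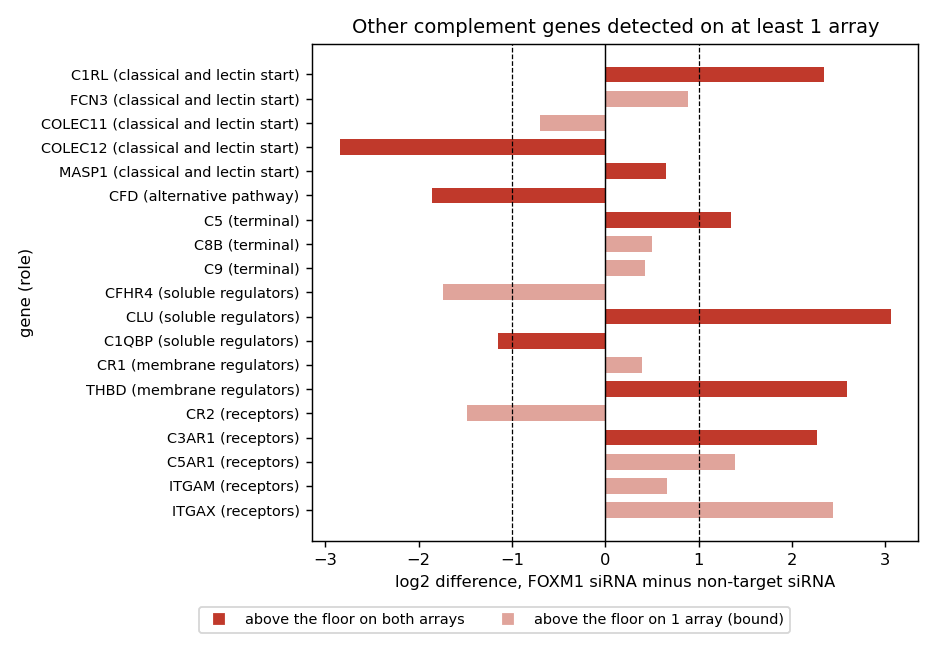
Log2 difference, FOXM1 siRNA minus non-target siRNA (horizontal axis), of the 19 other complement genes with a fold, labelled by role, with 2-fold as dashed lines. Dark bars are genes above the floor on both arrays and pale bars are bounds; CLU (3.06) and THBD (2.59) extend furthest to the right and COLEC12 (-2.84) furthest to the left.

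Several of these genes are also made by blood cells and liver, so markers of such cells were read beside them. Of 7 macrophage and microglia markers measured, 2 were detected, CSF1R (109 on the FOXM1-labelled array and 102 on the non-target-labelled array) and CD163, with a bound of 0.55. PTPRC, CD14, AIF1, TYROBP and CX3CR1 lay below the floor on both arrays, and the signals of the 7 summed to 359 on the FOXM1-labelled array and 243 on the non-target-labelled array. Of 5 hepatocyte markers, ALB and TTR lay below the floor on both arrays. The other 3 were above it on 1 array: SERPINA1 was at least 1.88-fold and AFP at least 1.86-fold higher, and APOA1, above it on the non-target-labelled array, had a bound of -0.20 on the log2 scale. The summed signals of the 5 were 304 and 211 in that order. The 4 endothelial markers summed to 301 and 108, with CDH5 and CLDN5 below the floor on both arrays. All of these sums include signals below the floor. PECAM1 read 113 on the FOXM1-labelled array and 62.8 on the non-target-labelled array, 1.80-fold, and VWF was at least 1.96-fold higher. The 62.8 of PECAM1 lay just above the floor of its array. Of the lymphocyte markers, CD3E lay below both floors and MS4A1 had a log2 difference of 0.32. The part of such cells in the complement values was not tested. In such bulk RNA, fewer cells of a type and less RNA per cell cannot be told apart.

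Genes known to induce complement transcription were read on the same arrays. Of 20 detected, 11 were higher by 2-fold or more and 1 lower, with a median log2 difference of 1.20. Over all detected genes the shares were 16% and 15.4% and the median was -0.02. IL1B, an inflammatory cytokine, was 25.7-fold higher. IL6 read 10968 on the FOXM1-labelled array and 863 on the non-target-labelled array, 12.7-fold. The C/EBP factor genes CEBPB and CEBPD, known to act on acute phase promoters, were 4.13-fold and 3.38-fold higher. IRF1, a factor of the interferon response, was 2.35-fold higher, with 409 on the FOXM1-labelled array and 174 on the non-target-labelled array, and its other probe set gave 3.05 on the log2 scale. NFKB1 was 1.89-fold, under the threshold, and TNF was among 4 inducers below the floor on both arrays. The lower gene, named after its values were seen, was IFNGR1, a chain of the interferon gamma receptor, with 2481 on the FOXM1-labelled array and 6369 on the non-target-labelled array. Whether these levels bear on those of the members was not tested.

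The directions of the 8 detected members were alike in each processing setting that could read them. C1R, C1S, C3 and CD59 were at least 2-fold higher in each setting in which they could be read, and CD46 and CD55 stayed below 0 in each. Under the scaling that sets the hybridisation controls equal, the median of all genes moved to -0.30, and the members had a median of 1.46.

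**Figure D5:**
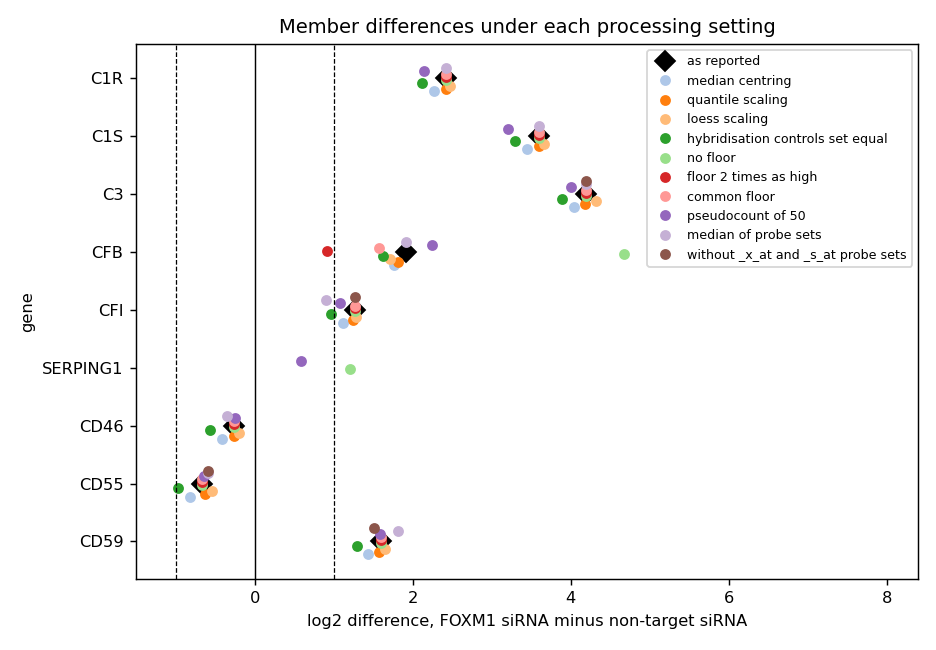
Log2 difference, FOXM1 siRNA minus non-target siRNA (horizontal axis), of each member as reported (black diamonds) and under each of the other settings (coloured circles), with 2-fold as dashed lines. C3 ranges from 3.89 to 4.32 and CD46 from -0.56 to -0.19, while CFB spreads from 0.92 to 4.67 with the treatment of low signals.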

How the data were processed

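RNA of 2 samples was measured on 1 array each, after labelling from the poly-A tail with a 3' IVT kit, per the labels' protocols. The values deposited by the authors are linear signal intensities made with MAS5, per the submitters' processing notes, whose version is not given in the sources used here. Trimmed means (2% off each end) were 500.07 on both arrays. Of 54675 probe sets, 41097 had 1 gene symbol, updated through the gene ID. The brightest probe set by mean log2 signal stood for a gene. Below-floor signals (90th percentile of 135 olfactory receptor probe sets) were raised to the floor, and a fold was a bound if 1 array lay below it. A fold threshold of 2 was used, with no p-values at 1 array per group; the number of arrays limits the precision. The steps were tested on simulated data with planted 8-fold differences in genes above both floors. No differences near 2-fold were planted, so calls near the threshold were not tested. Named genes were all members, any other complement gene detected, 8 inducers and the label checks. Members and lists were chosen with earlier results of these data known. Some genes of the lists are not reported here. Quantile and loess scaling (span 0.3) used limma 3.58.1 in R 4.3.3, the rest Python 3.11.15, numpy 2.4.6 and pandas 2.3.3.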

Additional observations from a re-analysis of the deposited data

How the results depend on the processing

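The settings tried were centring on the median, quantile or loess scaling, equal hybridisation controls (18 probe sets, median log2 difference 0.30), no floor, a floor 2 times as high, a common floor, a pseudocount of 50, the median of probe sets, no _x_at and _s_at probe sets, and a 1.5-fold threshold. No member's log2 difference changed sign, nor did their median. The count of members at least 2-fold higher was 6, and 5 to 7 in all but 1 alternative: without _x_at and _s_at probe sets it was 3 of 4 left. Over all genes, 11.2% to 26.1% were higher in the alternatives. At 1.5-fold, 1 member, CD55, was lower, beside 26.8% of all detected genes lower and 26.1% higher. CFB gave 4.67 with no floor and 0.92 with a floor 2 times as high. SERPING1 gave 1.21 with no floor and 0.58 with the pseudocount (log2), both from signals below the floor. Of the other complement genes, 17 were higher and 11 lower with no floor, 2 were lower with a floor 2 times as high, and 7 were higher and 0 lower without _x_at and _s_at probe sets. These settings left 44, 13 and 13 genes. Over all genes read with no floor, 23.2% were higher and 19.2% lower. With a floor 2 times as high, 15.1% of all genes were lower. Without _x_at and _s_at probe sets, 16.1% of all genes were higher and 15.1% lower. The 5 lower genes were read above a floor by _s_at probe sets alone. With the hybridisation controls set equal, 11.3% of all genes were higher and 23.1% lower. No paired analysis was possible because each group had 1 array.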
